A study of Mus musculus with 6 samples.

Results

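Ephrins, semaphorins, netrins and Slits, together with their cell surface receptors, form the guidance gene families described here. Members were the protein-coding genes whose symbols name an ephrin (Efna, Efnb), an Eph receptor (Epha, Ephb), a semaphorin of classes 3 to 7 (Sema), a plexin (Plxn), a neuropilin (Nrp), a Slit, a Robo, a netrin (Ntn1 to Ntn5) or an Unc5 receptor. The rule found 68 members, 35 ligands and 33 receptors, among the 55416 genes counted. They were followed in epiblast-like cells (EpiLCs), the formative cells that mouse embryonic stem cells of the 46C line give after 48 h in N2B27 medium with 1% KSR (a serum replacement), bFGF and Activin A on fibronectin. Parental 46C cells served as WT and carry GFP under the neural gene Sox1. The KO cells were a single clone of that line in which both copies of Oct6 (Pou3f1 in the annotation) carry an insertion, so that clone and genotype cannot be told apart. RNA-seq was performed on 3 replicates of each genotype, and the question put to the data is which ligands and which receptors differ between WT and KO EpiLCs.

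Guidance genes are best known from growing axons, which their receptors steer by ligands of other cells, and they also serve cell sorting, adhesion and vessel growth in embryos. Ephrins are bound to the membrane, A-type ephrins by a lipid anchor and B-type ephrins by a transmembrane segment, and they signal by contact to Eph receptor tyrosine kinases. Semaphorins act through plexins, most secreted ones with a neuropilin as the binding subunit, while Slits act through Robo receptors and netrins through Dcc and Unc5 receptors.

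Each library held between 10995505 and 14680930 counts on genes, of which the members took between 0.0991% and 0.110% in WT EpiLCs and between 0.0765% and 0.0927% in KO EpiLCs. Levels are given as CPM, counts scaled to the TMM-normalized size of each library, with SDs over the 3 libraries of a group, and values are listed in the order of the replicate numbers. SE stands for the standard error of a log2 fold change, which is KO minus WT throughout. Genes are compared with each other only as CPM per kb, which is CPM divided by the length of the canonical transcript. Oct6 itself (Pou3f1, ENSMUSG00000090125.4) had 161, 143 and 122 CPM in the WT libraries and 127, 141 and 128 CPM in the KO libraries, and the groups overlapped (log2 fold change −0.10, SE 0.11, adjusted p = 0.574 in edgeR's quasi-likelihood test). Counts on the gene do not show the insertion, so the Oct6 level does not check the labels. In bulk RNA, fewer cells that express a gene and less RNA per cell cannot be told apart.

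The cells carried the transcripts listed for the cell type on their label. Some of these, such as Pou5f1 and Sox2, are expressed in naive ES cells too, so their sum does not tell EpiLCs from naive ES cells. All 8 epiblast-like markers were tested, with sums of 1219, 1245 and 1122 CPM per kb in the WT and 1138, 1163 and 1114 in the KO libraries and Pou5f1 the most abundant, and Sox2, Otx2 and Fgf5 were higher in KO EpiLCs. Of 8 naive ES cell markers 5 were higher in KO EpiLCs (Klf2, Esrrb, Zfp42, Prdm14 and Nr5a2) and none lower, and the list summed to 74.5, 75.1 and 74.6 CPM per kb in the WT libraries and to 109, 106 and 136 in the KO libraries. Zfp42 was the most abundant of them. Among 8 neural markers, 4 of them tested, Sox1 and Tubb3 were lower in KO EpiLCs, Dcx and Neurog2 had at most 2 counts in a library, and the sums were 13.0, 13.0 and 10.9 CPM per kb in WT and 8.08, 7.78 and 8.52 in the KO libraries, with Tubb3 the most abundant. Endothelial markers, of interest because Nrp1, Robo4 and Plxnd1 are used in vessels, summed to 24.7, 22.7 and 23.4 CPM per kb in WT and to 43.7, 47.6 and 46.4 in the KO libraries. Most of that rise is Cldn5, from 5.90 to 23.4 CPM per kb, on chromosome 16 (neighbourhood median 0.54; 1.44 left with that removed, adjusted p = 6.13e-06). Tek was higher as well, Pecam1, the most abundant in WT, and Vwf were not called, and Tie1 was not tested, while Emcn had no count, Cdh5 had at most 4 counts and Erg at most 2 counts in a library. Primitive streak and mesoderm markers summed to 2.06, 1.83 and 2.00 CPM per kb in WT and 3.34, 2.67 and 4.14 in the KO libraries, led by Eomes, the only one of 6 that was tested, which was higher, and T had at most 6 counts in a library. Endoderm markers summed to 1.11, 1.23 and 0.939 in WT and 1.71, 0.851 and 2.49 in the KO libraries, with Gata6 higher. Afp, the most abundant of them in WT, was too low to be tested and went from 10, 5 and 11 counts in WT to 2, 1 and 0 in the KO libraries, lower with no filter (−2.93, adjusted p = 0.0209). Fibroblast markers summed to 4.64, 2.87 and 3.41 in WT and 3.20, 1.89 and 2.37 in the KO libraries, led by Dcn, with Thy1 lower and Pdgfra higher. With the replicate number as a block Dnmt3a (0.23, adjusted p = 0.0387), Dnmt3b (−0.19, adjusted p = 0.0550), Pou5f1 (−0.19, adjusted p = 0.0665), Dcn (−0.57, adjusted p = 0.0335) and Col1a2 (−0.74, adjusted p = 0.0651) were called too. Pdgfra, at an adjusted p of 0.0991, was not called without replicate 2 or 3 of WT or replicate 1 or 3 of KO (adjusted p = 0.309, 0.111, 0.332 and 0.276) in DESeq2's Wald test (0.157), with library totals alone (0.124) or with the shift of its chromosome or neighbourhood removed (0.104 and 0.156), Sox2 not without WT replicate 1 or KO replicate 3 (0.111 and 0.206) and Gata6 not without KO replicate 3 (0.113). The naive, neural, endothelial and primitive streak sums did not overlap between genotypes, while the epiblast-like, endoderm and fibroblast sums did. Within each replicate number, however, the epiblast-like and fibroblast sums were lower in KO than in WT, and the endoderm sum went both ways. Over all genes tested 24.3% were called (11.8% higher and 12.5% lower), and in 33.7% the values did not overlap between genotypes. Marker lists with few genes tested cannot be set apart from these shares. The part of the marker lists in the results below was not tested.

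In KO EpiLCs 21 guidance genes differed from WT EpiLCs at an adjusted p below 0.1 in edgeR's quasi-likelihood test, out of 54 members that passed the filter on low counts. That is 38.9% of the members tested, beside 24.3% of all 15746 genes tested. Of these, 8 were higher in KO EpiLCs, where 11.8% of all genes tested were called higher, and 13 were lower, where 12.5% of all genes tested were called lower. Of the called members 12 differed by 1 or more on the log2 scale (22.2% of those tested), beside 6.21% of all genes tested. Members tested had a median log2 fold change of −0.23, where all genes tested had 0.00, and without regard to sign the medians were 0.42 and 0.23. In 26 members the WT and KO values did not overlap, which is 48.1% of the members tested beside 33.7% of all genes tested. Some of the low members passed the filter through the group in which they are high, so these shares describe the members and are no test of them.

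**Figure D1:**
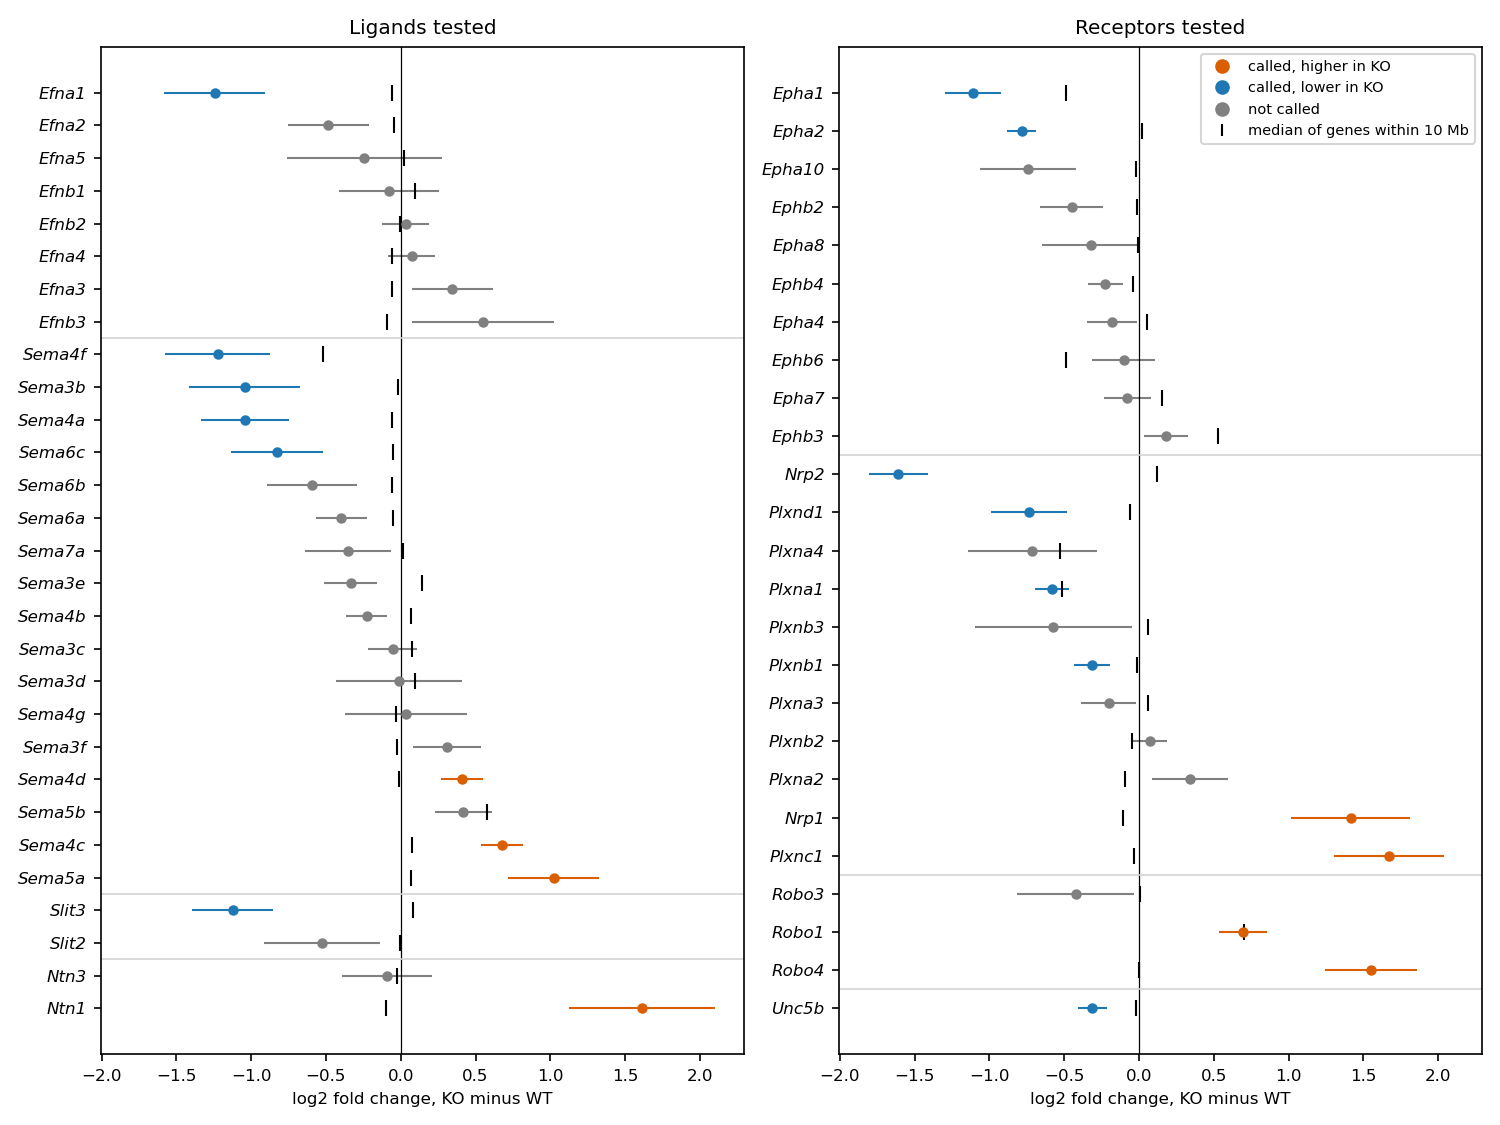
Log2 fold change (KO minus WT) of the 29 ligands (left) and 25 receptors (right) tested, with bars for the standard error, in colour where the adjusted p was below 0.1; grey lines part the ephrin-Eph, semaphorin, Slit-Robo and netrin-Unc5 systems from top to bottom. Black ticks give the median log2 fold change of the genes within 10 Mb, which lies far from 0 for Epha1, Sema4f, Plxna1, Plxna4, Ephb6, Ephb3, Sema5b and Robo1.

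Calls were found among ligands and receptors alike. Among ligands 10 of 29 tested were called (34.5%), 4 higher and 6 lower, and among receptors 11 of 25 (44%), 4 higher and 7 lower, beside 24.3% of all genes tested. With the replicate number as a block these were 13 and 13, together 48.1% of the members tested, where 30.3% of all genes tested were called. Precision depended on the level. For the 20 members with at least 10 CPM over the 6 libraries the standard error of the log2 fold change ran from 0.10 to 0.20, and 9 of them were called (45.0%, beside 26.5% of all genes tested at that level). For the 34 members below 10 CPM it ran from 0.18 to 0.52, and 12 were called (35.3%, beside 21.3%), none with a change under 0.73 in size. Smaller changes in the low members were not detected at this depth.

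**Figure D2:**
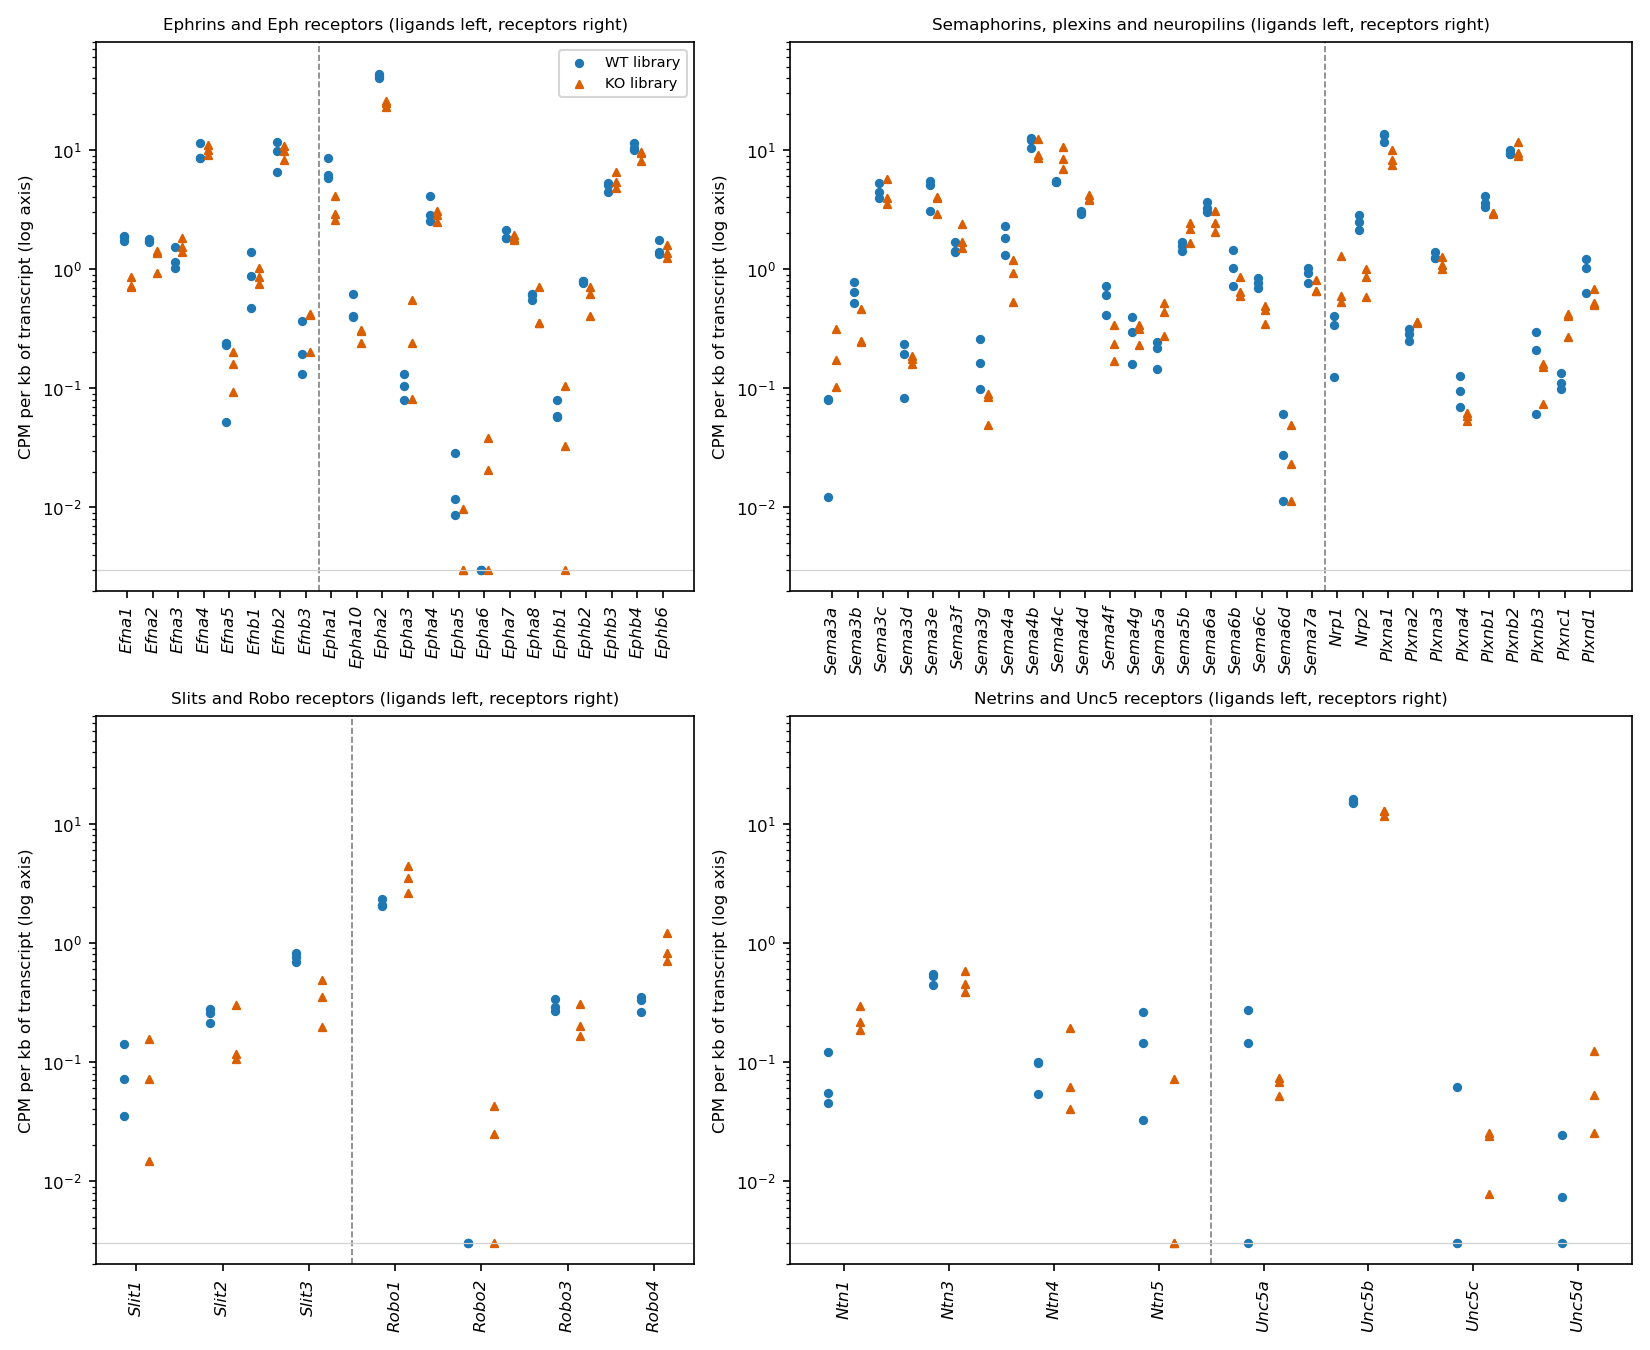
CPM per kb of transcript (log axis) of all 68 members in the 3 WT and 3 KO libraries, by system, with ligands left of the dashed line and receptors right of it. Libraries without a count are drawn on the grey line at 0.003; Epha2 stands highest, and its WT and KO points do not overlap.

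Promoters were looked at because the KO cells carry an insertion in the gene of a POU factor, a class of factors known to bind the octamer. RefSeq promoter windows, from 250 bases before to 50 after a gene's start (GRCm38), matched 59 of the 68 members. The octamer ATGCAAAT, searched on both strands, was in 0 of their 75 windows, beside 1.74% of all 32851 windows and 1.55% of those of protein-coding genes. The GC box GGGCGG was in 53 of the 75 member windows, which is 70.7%, beside 35.7% of all windows and 50.5% of those of protein-coding genes. It was in 13 of 16 windows of members lower in KO EpiLCs, 6 of 10 of those higher, 28 of 34 of those not called and 6 of 15 of those not tested. Member windows are also rich in G and C, with a median GC content of 64.7% over 1 window of each member beside 52.7% over all windows, so the share of GC boxes cannot be told apart from base content. Matched letters are a description and not a binding site, and absence from this window says nothing on the rest of the gene. The 3 stretches below were found again in GRCm39 by exact match, Plxnc1 on the minus and the others on the plus strand, and end before the first annotated exon. One stretch belongs to the most abundant member (Epha2, chr4:141028282-141028531). The others belong, among members tested, to the one that fell most (Nrp2, chr1:62742226-62742443) and the one that rose most (Plxnc1, chr10:94780878-94780957). GC boxes on either strand are in capitals.
Epha2: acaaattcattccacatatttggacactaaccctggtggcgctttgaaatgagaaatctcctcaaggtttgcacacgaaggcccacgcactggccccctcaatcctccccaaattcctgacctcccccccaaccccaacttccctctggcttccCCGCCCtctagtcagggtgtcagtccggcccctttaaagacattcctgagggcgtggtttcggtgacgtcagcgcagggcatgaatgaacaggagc
Nrp2: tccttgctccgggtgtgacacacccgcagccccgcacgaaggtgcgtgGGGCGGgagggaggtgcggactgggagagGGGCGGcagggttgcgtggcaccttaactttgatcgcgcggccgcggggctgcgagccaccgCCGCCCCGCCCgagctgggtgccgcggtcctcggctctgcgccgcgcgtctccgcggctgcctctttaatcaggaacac
Plxnc1: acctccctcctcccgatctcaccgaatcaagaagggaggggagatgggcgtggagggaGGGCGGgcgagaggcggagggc
Epha2 holds 1 such box, Nrp2 holds 4, of which a pair overlaps, and Plxnc1 holds 1, in stretches of unequal length that do not compare the genes.

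The ephrin-Eph system was the most abundant, and in it Efna1, Epha1 and Epha2 were the members called. Of the ephrins 7 of 8 were not called, and their sum was 30.2, 20.6 and 24.2 CPM per kb in the WT libraries and 27.0, 22 and 24.8 in the KO libraries. Efna4, an A-type ephrin (ENSMUSG00000028040.8, chromosome 3 of GRCm39, 89240695 to 89245373), was the highest ligand of this system per kb by the WT mean, although Efnb2 was higher in WT replicates 1 and 3. It had 18.8, 14.1 and 13.9 CPM in the WT libraries and 17.9, 15 and 16.4 CPM in the KO libraries. The groups overlapped, with a log2 fold change of 0.07 (SE 0.16, adjusted p = 0.809 by edgeR), which ran from −0.01 without WT replicate 3 to 0.23. Efnb2, the B-type ephrin of arteries and of hindbrain borders, stood beside it at 9.36 ± 2.56 CPM per kb (SD, n = 3) in WT and 9.61 ± 1.26 in KO EpiLCs.

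Efna1, an A-type ephrin and a ligand of Epha2, fell in KO EpiLCs. Its gene (ENSMUSG00000027954.10, chromosome 3, 89179037 to 89188449) had 2.84, 2.74 and 2.57 CPM in the WT libraries and 1.05, 1.08 and 1.28 CPM in the KO libraries. Every KO library was below every WT library, and the log2 fold change was −1.25 (SE 0.33, adjusted p = 0.0125 by edgeR). The remaining ephrins, Efna2, Efna3, Efna5, Efnb1, Efnb2 and Efnb3, were not called, with log2 fold changes from −0.49 to 0.55. Efna3 shares 30.7% of its exon length with an antisense gene, so its counts are uncertain.

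Epha2 was the most abundant member of all per kb and fell in KO EpiLCs. This receptor tyrosine kinase (ENSMUSG00000006445.4, chromosome 4, 141028540 to 141056695) had 158, 172 and 165 CPM in the WT libraries and 89.8, 96.6 and 101 CPM in the KO libraries. The groups lay far apart against their spread, 165 ± 7.06 CPM (SD, n = 3) in WT and 95.8 ± 5.66 CPM in KO EpiLCs. The log2 fold change was −0.78 (SE 0.10, adjusted p = 1.45e-05 by edgeR), and it stayed between −0.82 and −0.74 with any single library left out. Per kb it held 57.5% of the summed Eph receptor level in WT and 48.8% in KO EpiLCs.

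Epha1, the founding member of the Eph family (ENSMUSG00000029859.7, chromosome 6, 42335406 to 42350208), also fell. It had 28.4, 20.3 and 19.2 CPM in the WT libraries and 13.4, 8.49 and 9.55 CPM in the KO libraries, with no overlap. The log2 fold change was −1.11 (SE 0.19, adjusted p = 0.000325 by edgeR). The 117 genes tested within 10 Mb of it had a median log2 fold change of −0.49, and with that shift removed Epha1 kept −0.62 (adjusted p = 0.0306). Epha1 shares 36.9% of its exon length with Zyx on the opposite strand, and Zyx was itself lower in KO EpiLCs, at −1.52 on the log2 scale. The library kit keeps the strand, but whether the counting used it is not given in the sources used here, so reads of Epha1 and Zyx may not be separated.

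Taken over the families, the EphA sum went from 56.2, 55.5 and 54.0 CPM per kb in the WT libraries to 33.2, 32.1 and 34.6 in the KO libraries. The EphB sum was 17.9, 18.8 and 17.0 in WT and 15.3, 16.7 and 18.1 in the KO libraries, and the groups overlapped. No EphB receptor was called. Ephb4, the venous partner of Efnb2 and the highest EphB receptor per kb, had 46.2 ± 3.60 CPM (SD, n = 3) in WT and 39.5 ± 3.84 CPM in KO EpiLCs, and differed by −0.22 on the log2 scale (SE 0.12). Ephb3 lies on chromosome 16, where genes within 10 Mb had a median of 0.53, and its log2 fold change of 0.18 turned to −0.37 (adjusted p = 0.0950) with the shift of the chromosome removed and to −0.35 (adjusted p = 0.121, not called) with that of the neighbourhood removed. Epha4, Epha7, Epha8, Epha10, Ephb2, Ephb3, Ephb4 and Ephb6 were not called and ranged from −0.74 for Epha10 to 0.18 for Ephb3. With the replicate number as a block Epha10 (log2 fold change −0.72, adjusted p = 0.0954) and Ephb2 (−0.47, adjusted p = 0.0821) were called. Epha10 was also called among genes with at least 10 counts in every library (−0.74, adjusted p = 0.0914), and Ephb2 was also called without KO replicate 1 (−0.62, adjusted p = 0.0866).

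**Figure D3:**
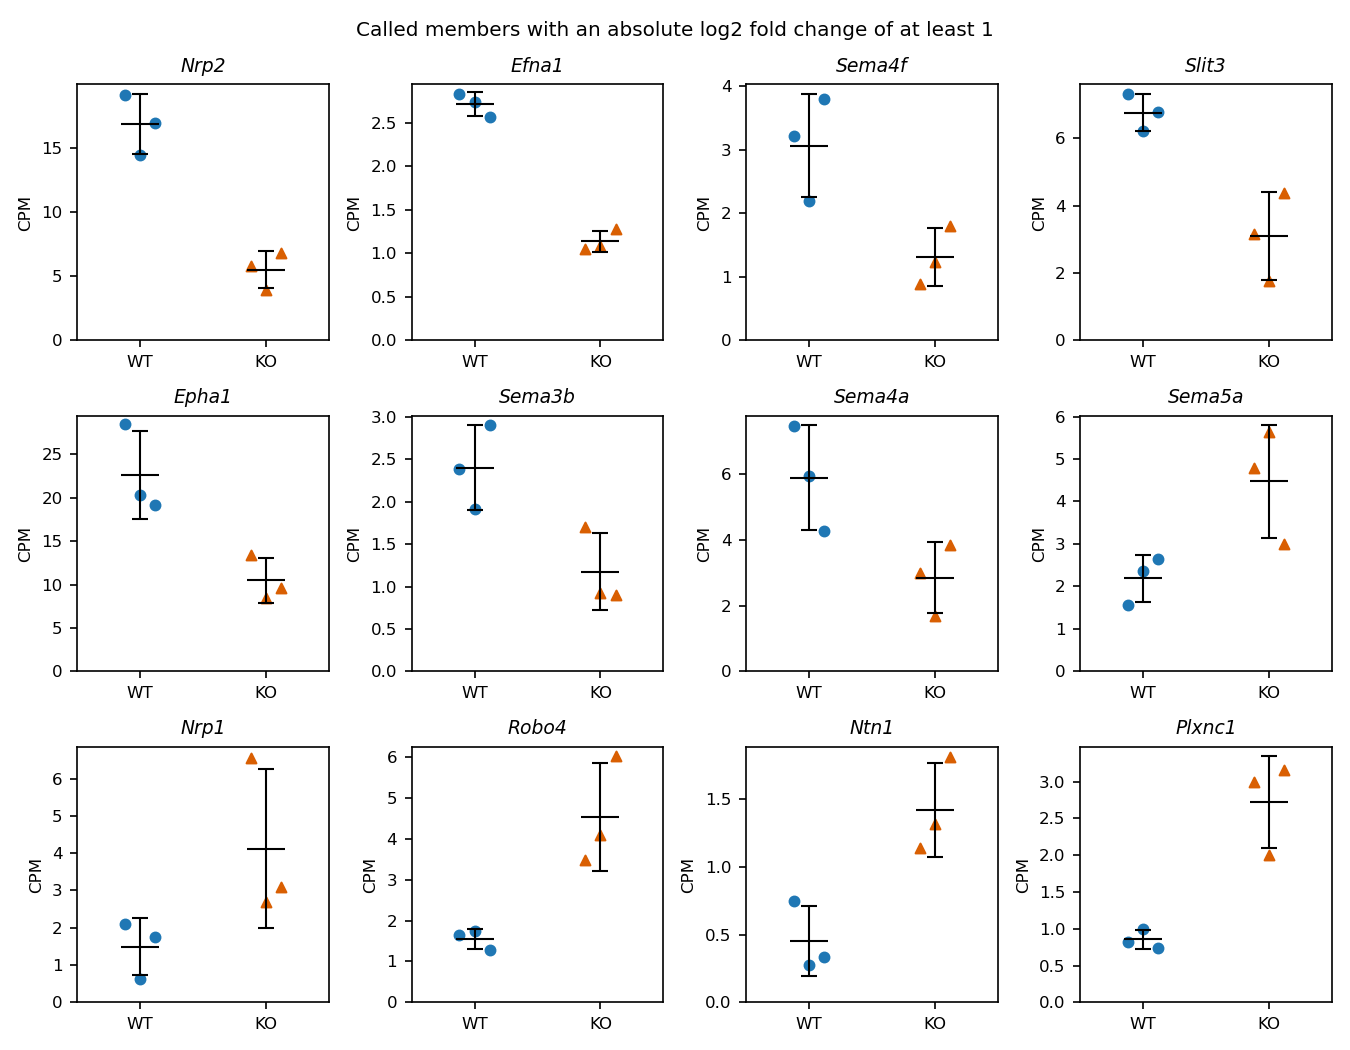
CPM (linear axes from 0) of the 12 called members that differ by 1 or more on the log2 scale, ordered from the most negative (Nrp2) to the most positive (Plxnc1). Points are the 3 libraries of each genotype, and the bars are the mean and SD; in each panel the WT and KO points do not overlap.

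Semaphorins and their receptors, the largest system, held 13 calls among 28 members tested, 5 higher and 8 lower, which is 46.4% beside 24.3% of all genes tested. The shares were 16.7% of 18 in the ephrin-Eph system, 60% of 5 in the Slit-Robo system and 66.7% of 3 in the netrin-Unc5 system. The ligands moved in both directions and their sum did not separate the genotypes, with 44.5, 39 and 43.7 CPM per kb in the WT libraries and 40.4, 38.5 and 46.0 in the KO libraries. Sema4b, a transmembrane semaphorin (ENSMUSG00000030539.14, chromosome 7, 79836046 to 79876334), was the highest of them per kb. It had 48.5, 39.8 and 46.0 CPM in the WT libraries and 33.0, 34.6 and 47.1 CPM in the KO libraries. KO replicate 3 lay inside the WT range, and the log2 fold change was −0.23 (SE 0.13, adjusted p = 0.278 by edgeR). Without KO replicate 3 Sema4b was called, with a log2 fold change of −0.41 (adjusted p = 0.0528).

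Among class 4 semaphorins, which are membrane proteins, Sema4c and Sema4d rose while Sema4a and Sema4f fell. Sema4c, a ligand of plexin B2, had 23.3, 23.5 and 23.3 CPM in the WT libraries and 30.1, 36.6 and 45.4 CPM in the KO libraries. The WT libraries hardly differed while the KO libraries were spread, all of them above WT, and the log2 fold change was 0.68 (SE 0.14, adjusted p = 0.00184 by edgeR). Sema4d, the ligand of plexin B1, rose by a log2 fold change of 0.41 (SE 0.14, adjusted p = 0.0508), from 13.5 ± 0.330 to 17.9 ± 0.794 CPM (SD, n = 3). Its adjusted p was 0.110, 0.154 and 0.105 without WT replicate 3, KO replicate 1 and KO replicate 2, 0.111 with no filter and 0.114 with the shift of its chromosome removed. Exons of Sema4c and Sema4d overlap antisense genes over 16.8% and 13.7% of their length, and those genes, D430040D24Rik and Secisbp2, were not called. D430040D24Rik was nonetheless higher in every KO library than in any WT library (log2 fold change 0.93, SE 0.44, adjusted p = 0.168), as Sema4c was, so reads of the 2 may not be separated. Secisbp2 overlapped between genotypes (0.18, adjusted p = 0.327).

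Sema4a, a semaphorin also known from immune cells and retina (chromosome 3, 88343262 to 88372558), had 7.46, 5.93 and 4.26 CPM in the WT libraries and 3.0, 1.70 and 3.84 CPM in the KO libraries. The highest KO library came close to the lowest WT library without reaching it, and the log2 fold change was −1.04 (SE 0.29, adjusted p = 0.0170 by edgeR). Sema4f (chromosome 6, 82887696 to 82916761) had 3.21, 2.19 and 3.79 CPM in the WT libraries and 0.891, 1.23 and 1.81 CPM in the KO libraries. These did not overlap, and the log2 fold change was −1.23 (SE 0.35, adjusted p = 0.0189). The 141 genes tested within 10 Mb of Sema4f had a median of −0.52, and Sema4f was not called with that shift removed (−0.71, adjusted p = 0.204) or with the shift of the whole chromosome removed (−0.83, adjusted p = 0.128).

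Sema3b, the secreted semaphorin among the called ligands (chromosome 9, 107474872 to 107486456), fell. It had 2.39, 1.92 and 2.91 CPM in the WT libraries and 1.70, 0.926 and 0.903 CPM in the KO libraries. KO replicate 1 stood just under WT replicate 2, and the log2 fold change was −1.04 (SE 0.37, adjusted p = 0.0565 by edgeR). This call rests on few counts and was lost without WT replicate 3, KO replicate 2 or KO replicate 3 (adjusted p = 0.196, 0.176 and 0.188) and in DESeq2's Wald test (0.132). Sema6c, a transmembrane semaphorin, fell from 3.0 ± 0.274 to 1.69 ± 0.299 CPM (SD, n = 3), which is a log2 fold change of −0.83 (SE 0.31, adjusted p = 0.0686). Its call was lost without replicate 1 or 3 of WT or replicate 1 or 3 of KO (adjusted p = 0.156, 0.128, 0.117 and 0.206), in DESeq2's Wald test (0.159) and, narrowly, with the shift of its neighbourhood removed (−0.78, adjusted p = 0.1005).

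Sema5a, a semaphorin with thrombospondin repeats (ENSMUSG00000022231.11, chromosome 15, 32244919 to 32696487), rose. It had 1.57, 2.37 and 2.64 CPM in the WT libraries and 4.78, 5.63 and 3.01 CPM in the KO libraries. KO replicate 3 lay closest to the WT libraries, still above them, and the log2 fold change was 1.02 (SE 0.30, adjusted p = 0.0225 by edgeR). Without KO replicate 2 it was 0.82 (adjusted p = 0.125). The abundant class 3 ligands were not called: Sema3c had 27.2 ± 4.12 CPM (SD, n = 3) in WT and 26.2 ± 6.99 CPM in KO EpiLCs, and Sema3e had 31.2 ± 8.86 and 24.9 ± 4.20 CPM. Also uncalled were Sema3d, Sema3f, Sema4b, Sema4g, Sema5b, Sema6a, Sema6b and Sema7a, so that the 10 uncalled semaphorins ranged from −0.59 for Sema6b to 0.42 for Sema5b.

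Several of these depended on a single library. Sema3e was called without WT replicate 2 (−0.55, adjusted p = 0.0172), Sema6b without WT replicate 3 (−0.82, adjusted p = 0.0823), and Sema5b and Sema6a without KO replicate 1 (0.56, adjusted p = 0.0704, and −0.56, adjusted p = 0.0469). With the replicate block Sema3e (−0.31, adjusted p = 0.0615), Sema5b (0.41, adjusted p = 0.0944) and Sema6a (−0.41, adjusted p = 0.0589) were called. Removing the shift of the neighbourhood made Sema3e called (−0.47, adjusted p = 0.0813), and removing that of the chromosome Sema6a (−0.43, adjusted p = 0.0993). Sema5b lies on chromosome 16 with a neighbourhood median of 0.58, and it stood at −0.16 with that shift removed.

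The neuropilins moved in opposite directions. Nrp2, the receptor that binds class 3 semaphorins and VEGF-C (ENSMUSG00000025969.16, chromosome 1, 62742444 to 62857854), had 19.2, 14.5 and 17.0 CPM in the WT libraries and 5.83, 3.93 and 6.84 CPM in the KO libraries. Every KO library was below 7 CPM and every WT library above 14, and the log2 fold change was −1.61 (SE 0.20, adjusted p = 1.66e-05 by edgeR), with a range of −1.79 to −1.41 when single libraries were left out. Nrp1, which binds Sema3a and VEGF-A (ENSMUSG00000025810.10, chromosome 8, 129085085 to 129231082), had 2.09, 0.639 and 1.76 CPM in the WT libraries and 6.56, 2.70 and 3.08 CPM in the KO libraries. The KO libraries all lay above WT, KO replicate 1 far above the others, and the log2 fold change was 1.42 (SE 0.40, adjusted p = 0.0161). Without KO replicate 1 it was 0.91 (adjusted p = 0.168). Per kb Nrp2 made up 87.5%, 94.5% and 88.0% of the neuropilin sum in the WT libraries and 40.3%, 52.5% and 62.8% in the KO libraries.

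Plexin A1, a receptor of class 3 and class 6 semaphorins, was the highest semaphorin receptor per kb in WT EpiLCs. Its gene Plxna1 (ENSMUSG00000030084.12, chromosome 6, 89288589 to 89339619) had 189, 183 and 160 CPM in the WT libraries and 114, 103 and 138 CPM in the KO libraries. Without overlap between the groups, the log2 fold change was −0.58 (SE 0.11, adjusted p = 0.00104 by edgeR). This is close to the median of −0.51 of the 146 genes tested within 10 Mb, and with that shift removed −0.07 was left (adjusted p = 0.750). With the shift of chromosome 6 removed it was −0.18 (adjusted p = 0.310). Plxnb2, next in level, had 63.7 ± 3.09 CPM (SD, n = 3) in WT and 67.0 ± 9.81 CPM in KO EpiLCs and was not called. It stood above Plxna1 in every KO library, at 9.39, 8.97 and 11.7 against 8.30, 7.47 and 10 CPM per kb. As shares of the plexin sum per kb, Plxna1 held 44.4% in WT and 35.5% in KO EpiLCs and Plxnb2 32.9% and 41.4%.

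Plxnc1, the receptor of Sema7a (ENSMUSG00000074785.6, chromosome 10, 94626728 to 94780877), had the largest rise of the members tested. It had 0.821, 1.00 and 0.744 CPM in the WT libraries and 3.0, 2.01 and 3.16 CPM in the KO libraries. In counts these are 11 in each WT library and 37, 26 and 42 in the KO libraries, with a log2 fold change of 1.67 (SE 0.37, adjusted p = 0.00312 by edgeR). Sema7a itself had 3.01 ± 0.430 CPM (SD, n = 3) in WT and 2.35 ± 0.309 CPM in KO EpiLCs and was not called.

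Plxnd1, the receptor of Sema3e (chromosome 6, 115931772 to 115972286), fell from 6.92 ± 2.15 to 4.13 ± 0.726 CPM (SD, n = 3), which is a log2 fold change of −0.73 (SE 0.25, adjusted p = 0.0482). Its groups overlapped, KO replicate 3 at 4.96 CPM lying above WT replicate 1 at 4.55 CPM. The call was lost without replicate 2 or 3 of WT or replicate 1 or 2 of KO (adjusted p = 0.214, 0.135, 0.146 and 0.130) and with the shift of chromosome 6 removed (0.425), although the genes within 10 Mb had a median of only −0.06. Plxnb1, the Sema4d receptor, fell from 36.9 ± 4.05 to 29.6 ± 0.387 CPM, which is a log2 fold change of −0.32 (SE 0.12, adjusted p = 0.0735). It was not called without WT replicate 1, WT replicate 2 or any single KO replicate (adjusted p = 0.263, 0.115, 0.151, 0.178 and 0.139), with no filter (0.113) or with the shift of its neighbourhood removed (0.101), which left −0.30 beside a neighbourhood median of −0.02. The uncalled plexins Plxna2, Plxna3, Plxna4, Plxnb2 and Plxnb3 ranged from −0.71 for Plxna4 to 0.34 for Plxna2.

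Slit3 fell, while Robo1 and Robo4 rose. Slit3, the highest Slit per kb (ENSMUSG00000056427.11, chromosome 11, 35011789 to 35602786), had 7.31, 6.21 and 6.76 CPM in the WT libraries and 3.16, 1.77 and 4.36 CPM in the KO libraries. All KO libraries were below the WT libraries, and the log2 fold change was −1.12 (SE 0.27, adjusted p = 0.00590 by edgeR). Slit2 had 2.48 ± 0.341 CPM (SD, n = 3) in WT and 1.74 ± 1.09 CPM in KO EpiLCs and was not called (log2 fold change −0.53, SE 0.39). KO replicate 1 lay above the WT libraries in Slit2, and without it the log2 fold change was −1.17 (adjusted p = 0.0597).

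Robo1, the highest Robo receptor per kb (ENSMUSG00000022883.12, chromosome 16, 72105194 to 72844378), had 21.7, 19.1 and 18.9 CPM in the WT libraries and 40.4, 24.1 and 32.3 CPM in the KO libraries. The groups did not overlap, and the log2 fold change was 0.70 (SE 0.16, adjusted p = 0.00412 by edgeR). The 19 genes tested within 10 Mb of it had a median of 0.70, and with that shift removed Robo1 stood at −0.01 (adjusted p = 0.985). With the shift of chromosome 16 removed it stood at 0.15 (adjusted p = 0.607).

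Robo4, a Robo receptor known from endothelium (ENSMUSG00000032125.22, chromosome 9, 37313193 to 37326411), rose without such a shift around it. It had 1.64, 1.73 and 1.29 CPM in the WT libraries and 3.48, 4.09 and 6.02 CPM in the KO libraries. Every KO library was well above the highest WT library, and the log2 fold change was 1.55 (SE 0.31, adjusted p = 0.00125 by edgeR), beside a median of 0.00 for the 125 genes within 10 Mb. Its neighbour Robo3 was not called, at −0.42 (SE 0.39). The sum of the Slits was 1.17, 0.940 and 1.16 CPM per kb in WT and 0.809, 0.329 and 0.665 in the KO libraries, and that of the Robo receptors 2.96, 2.71 and 2.65 in WT and 5.40, 3.68 and 4.92 in the KO libraries. The summed Slit level over the summed Robo level went from 0.392 ± 0.0448 (SD, n = 3) to 0.125 ± 0.0315. Most of the rise in the Robo sum is that of Robo1, from 2.16 to 3.50 CPM per kb, which did not exceed the shift around it, while Robo4 went from 0.315 to 0.919.

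Netrins were scarce beside Unc5b, the most abundant Unc5 receptor. Ntn3, the highest netrin per kb (ENSMUSG00000117406.2, chromosome 17, 24422822 to 24428570), had 2.24, 2.74 and 2.64 CPM in the WT libraries and 1.94, 2.93 and 2.26 CPM in the KO libraries. These overlapped, and the log2 fold change was −0.09 (SE 0.30, adjusted p = 0.883 by edgeR), moving to 0.03 without KO replicate 1. Ntn1, the netrin that guides commissural axons (ENSMUSG00000020902.13, chromosome 11, 68100190 to 68291662), rose from 10, 3 and 5 counts in the WT libraries to 14, 17 and 24 counts in the KO libraries. These correspond to 0.746, 0.274 and 0.338 CPM in WT and 1.13, 1.31 and 1.81 CPM in KO EpiLCs, which do not overlap. KO minus WT was 1.61 (SE 0.49, adjusted p = 0.0244), and with so few counts the adjusted p was 0.104, 0.104 and 0.128 without WT replicate 2, WT replicate 3 and KO replicate 3.

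Unc5b, a netrin receptor of the dependence receptor class (ENSMUSG00000020099.9, chromosome 10, 60598372 to 60667396), held 98.9% of the Unc5 sum per kb in WT EpiLCs. It had 88.2, 89.4 and 94.4 CPM in the WT libraries and 68.5, 75.3 and 75.3 CPM in the KO libraries. All WT libraries were above all KO libraries by a modest margin, with a log2 fold change of −0.31 (SE 0.10, adjusted p = 0.0289 by edgeR). Without KO replicate 1 it was −0.27 (adjusted p = 0.129). Dcc and its relative Neo1, the other class of netrin receptor, were tested with the co-receptors below and were not called. Dcc had 0.0841 CPM per kb in WT and 0.0936 in KO EpiLCs. Neo1 was abundant, at 12.6 and 12.9 CPM per kb, with a log2 fold change of 0.04 (SE 0.10). Neither gene is in the Unc5 sum.

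**Figure D4:**
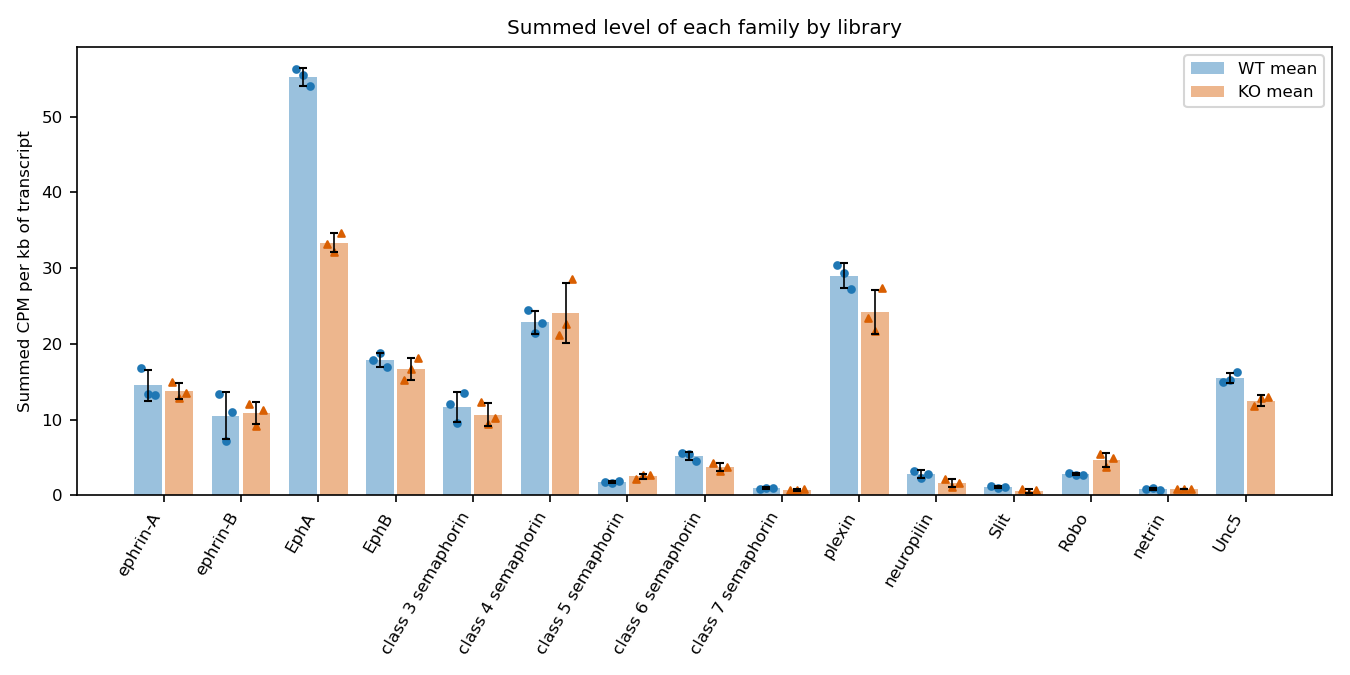
Summed CPM per kb of transcript of each family (linear axis from 0), with the 3 WT and 3 KO libraries as points and the mean and SD as bars. The EphA sum shows the widest gap, from 55.2 ± 1.13 in WT to 33.3 ± 1.25 in KO EpiLCs, while the ephrin-A, ephrin-B, EphB, netrin, plexin and class 3, 4 and 7 semaphorin sums overlap between genotypes.

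Over all members the summed receptor level was lower in KO EpiLCs, while the summed ligand level overlapped between genotypes. The receptor sum was 126, 124 and 120 CPM per kb in the WT libraries and 91.1, 88.2 and 99.6 in the KO libraries, with no overlap and a KO to WT ratio of 0.754. The ligand sum was 76.7, 61.5 and 69.7 in WT and 69.0, 61.7 and 72.3 in the KO libraries, with overlap and a ratio of 0.977. Among the receptor families the ratio was 0.603 for EphA receptors, 0.581 for neuropilins, 0.806 for Unc5 receptors and 1.68 for Robo receptors, without overlap, and 0.833 for plexins and 0.931 for EphB receptors, with overlap. Epha2 alone went from 42.1 to 24.4 CPM per kb. Ligand families separated as well, with ratios of 0.553 for Slits, 0.709 for class 6 semaphorins and 1.42 for class 5 semaphorins. Most of the class 6 fall is Sema6a, from 3.33 to 2.52 CPM per kb, and Sema6b, from 1.06 to 0.699. Each of them overlapped between genotypes and was not called in the main fit. Most of the class 5 rise is Sema5b, from 1.56 to 2.09 CPM per kb, which was not called and did not exceed the shift around it on chromosome 16. The ligand sum over the receptor sum was 0.562 ± 0.0593 (SD, n = 3) in WT and 0.728 ± 0.0283 in KO EpiLCs. By system, it went from 0.342 ± 0.0652 to 0.492 ± 0.0559 for ephrins and Eph receptors, from 1.33 ± 0.111 to 1.62 ± 0.0601 for semaphorins and their receptors, and from 0.0522 ± 0.0106 to 0.0660 ± 0.000782 for netrins and Unc5 receptors, and fell for Slits and Robo receptors, as given above. The semaphorin ratio rose through its receptors, whose sum went from 31.8 to 25.8 CPM per kb, most of it Plxna1, from 12.9 to 8.60, which kept almost no change once the shift around it on chromosome 6 was removed. The netrin ratio rose with the fall of the Unc5 sum, from 15.5 to 12.5 CPM per kb. The netrin sum itself overlapped, at 0.807 ± 0.141 in WT and 0.827 ± 0.0525 in KO EpiLCs. It rests on few counts, so the small SD of the KO ratio does not measure its precision. All these sums weigh abundant genes most and carry no test.

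Some members lie on chromosomes 6 and 16, whose medians stood apart from 0. Chromosome 6 had a median log2 fold change of −0.40 over 773 genes tested and chromosome 16 one of 0.55 over 471, whereas no other chromosome passed 0.07 in either direction. Chromosome 6 was not shifted evenly, with medians within 10 Mb from −0.53 to −0.49 around its other members tested but −0.06 around Plxnd1. On chromosome 6 lie 6 members tested, of which Epha1, Sema4f, Plxna1 and Plxnd1 were called lower and Plxna4 and Ephb6 were not called. On chromosome 16 lie 3, of which Robo1 was called higher and Ephb3 and Sema5b were not called. Off these chromosomes 16 of 45 members tested were called, which is 35.6%, beside 21.6% of all 14502 genes tested there. Of the 3833 genes called among all 15746 tested, 3132 lie off chromosomes 6 and 16. Genes on chromosomes 6 and 16 were therefore called more often than genes elsewhere. The share of members called on them was no higher than the share of all genes tested there. Since the KO cells are 1 clone, what lies behind the shifts was not tested, and Plxna1, Robo1 and Sema4f were not called once the shift of their neighbourhood was removed, while Epha1 and Plxnd1 (−0.68, adjusted p = 0.0807) were.

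**Figure D5:**
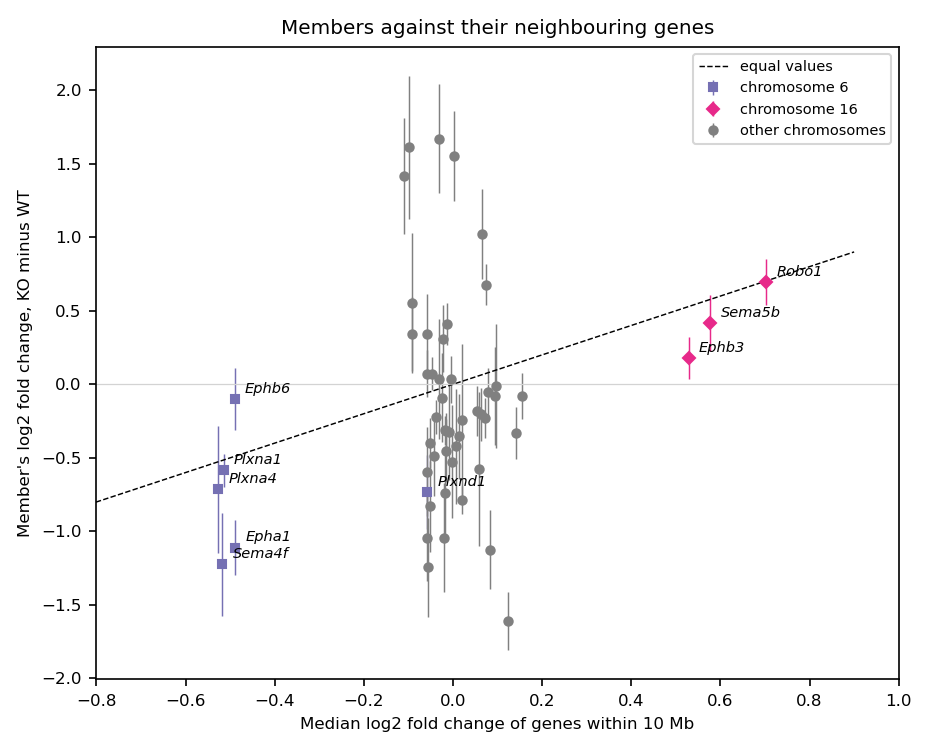
Log2 fold change of each member tested (bars, standard error) against the median log2 fold change of the genes within 10 Mb, with members on chromosomes 6 and 16 in colour and named. Plxna1 and Robo1 lie close to the dashed line of equal values, while Epha1 and Sema4f lie below it.

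Of the 14 members that did not pass the filter, none had more than 39 counts in a library. They were the receptors Epha3, Epha5, Epha6, Ephb1, Unc5a, Unc5c, Unc5d and Robo2 and the ligands Ntn4, Ntn5, Sema3a, Sema3g, Sema6d and Slit1. Sema3a, the ligand of Nrp1, had 8, 1 and 9 counts in the WT libraries and 29, 10 and 17 counts in the KO libraries. Its groups did not overlap, and it was called with no filter (log2 fold change 1.67, adjusted p = 0.0159), in DESeq2's Wald test (1.72, adjusted p = 0.0894) and, once it passed the filter, without WT replicate 1, WT replicate 3 or KO replicate 2 (adjusted p = 0.0518, 0.0659 and 0.0234). Unc5d had 3, 0 and 1 counts in WT and 6, 3 and 15 counts in the KO libraries and was called with no filter (adjusted p = 0.0564). Epha3, on chromosome 16, had 8, 5 and 11 counts in WT and 39, 6 and 18 counts in the KO libraries, and was called with no filter (adjusted p = 0.0297) and without KO replicate 2 (0.0139). Epha6 and Robo2 had no count in WT EpiLCs and 3 and 8 counts over the KO libraries, too few for a difference to be detectable at this depth.

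Other genes of these pathways were followed as 2 lists. Of 29 co-receptors and extracellular partners 24 were tested and 7 called, 5 higher and 2 lower, with a median log2 fold change of 0.07. That is 29.2%, beside 24.3% of all genes tested. Gpc3, a glypican, had 22.6, 24.3 and 29.6 CPM in the WT libraries and 62.7, 57.7 and 55.4 CPM in the KO libraries, a log2 fold change of 1.20 (SE 0.12, adjusted p = 2.13e-06 by edgeR) without overlap. Kdr, the VEGF receptor that pairs with Nrp1, had 0.448, 0.274 and 0.473 CPM in WT and 3.65, 1.77 and 2.33 CPM in the KO libraries, and Nell2, a ligand of Robo3, 1.42, 2.10 and 2.84 CPM in WT and 5.83, 5.09 and 5.34 CPM in the KO libraries. Their log2 fold changes were 2.64 (SE 0.45) and 1.34 (SE 0.28). Flt4, the VEGF-C receptor (0.76, SE 0.22), and the adhesion protein gene Dscaml1 (0.81, SE 0.23) were the other 2 higher genes. Vegfa, a ligand of Nrp1, was lower, from 5.22, 9.22 and 8.86 CPM in WT to 3.65, 3.16 and 5.19 CPM in the KO libraries (−0.95, SE 0.25). Hjv, of the repulsive guidance molecule family, was lower as well (−1.20, SE 0.40), although not without WT replicate 3, KO replicate 2 or KO replicate 3 (adjusted p = 0.178, 0.163 and 0.101). The 17 uncalled partners, among them Dcc, Neo1, Met, Adam10 and Sdc1, ranged from −0.38 to 0.95.

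Cytosolic effectors, which carry the receptors' signals to the cytoskeleton, were all tested, 55 in number, and 11 were called, 7 higher and 4 lower, with a median log2 fold change of 0.00. That is 20%, below the 24.3% of all genes tested. With the replicate block 16 were called, which is 29.1% beside 30.3% of all genes tested, the added ones being Srgap2 (0.28, adjusted p = 0.0306), Src (0.23, adjusted p = 0.0855), Abl2 (0.20, adjusted p = 0.0908), Srgap3 (0.36, adjusted p = 0.0971) and Cdk5 (−0.33, adjusted p = 0.0908). Called collapsin response mediators, which act downstream of semaphorins, went both ways. Crmp1 and Dpysl4, of the same family, were not called (log2 fold changes −0.06 and −0.41). Dpysl2 fell from 11.2, 14.9 and 11.8 CPM in WT to 5.67, 5.71 and 7.82 CPM in the KO libraries (log2 fold change −0.97, SE 0.19) and Dpysl5 by −0.60 (SE 0.16), while Dpysl3 rose by 0.56 (SE 0.18), although not without WT replicate 1, KO replicate 1 or KO replicate 3 (adjusted p = 0.146, 0.12 and 0.143). Trio, an exchange factor for Rac, and Inppl1, a phosphatase bound by Epha2, were lower, at −0.45 (SE 0.12) and −0.47 (SE 0.11). Enah and Dock1, regulators of actin and Rac, were higher, at 0.38 and 0.37 (SE 0.10 each). The Rac regulator Chn2, on chromosome 6, was higher at 0.52 (SE 0.20) but not called without replicate 2 or 3 of WT or replicate 1 or 3 of KO (adjusted p = 0.232, 0.138, 0.152 and 0.192), with no filter (0.110) or in DESeq2's Wald test (0.126). Against a neighbourhood median of −0.52 it stood at 1.04 with that shift removed (adjusted p = 0.0013) and at 0.92 with the shift of the chromosome removed (adjusted p = 0.00316). The latter step also made Mical3 and Srgap3 called, but the medians around them were only −0.04 each, and with those removed they were not called (adjusted p = 0.406 and 0.214). Pak2, Gsk3b and Tiam1 were higher at 0.53, 0.43 and 0.41, but all lie on chromosome 16 with neighbourhood medians of 0.57, 0.58 and 0.51, and with these removed they stood at −0.05, −0.14 and −0.10. Tiam1 also was not called without WT replicate 2 or KO replicate 3 (adjusted p = 0.122 and 0.110).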

How the data were processed

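RNA-seq of 3 WT and 3 KO EpiLC libraries was analysed from the raw counts per gene that the authors deposited. The submitters' processing notes name FastQC, STAR, DESeq2 and the GRCm39 (mm39) genome, and the library kit was stranded, while the annotation release and the use of the strand in counting are not given in the sources used here. Of 55416 identifiers 54749 were matched to GENCODE M39, and the rest held 0.0602% of counts. Counts were tested in R 4.3.3 with edgeR 4.0.16: TMM (factors 0.974 to 1.02), filterByExpr with a minimum count of 10, genotype as the only term, Benjamini-Hochberg adjustment over all 15746 genes tested and a threshold of 0.1. Standard errors come from the F statistic. The fits were tested on simulated data. These had a single dispersion and no replicate pairs. Changed genes were drawn there only above a floor of WT counts that the lowest called genes, such as Ntn1, do not reach. Alternatives were DESeq2 1.42.0, other size factors and filters, a replicate block, adjusted p below 0.05, each library left out, and chromosome or neighbourhood (10 Mb on either side) shifts removed; library factors and transcript lengths for the sums were varied after seeing the data. Members and lists were chosen with earlier results of these data known. The value of 1 neural marker is not reported here. Every called member is named, those that differ by 1 or more on the log2 scale and the highest ligand and receptor per kb of each system are given by library, and called genes of both pathway lists are named.

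Replicates are described as paired in the series' design text. Over 14793 genes, which are not independent replicates, deviations from the group means correlated at 0.223, 0.271 and 0.107 between libraries of the same number. Between those of different numbers the correlations ran from −0.207 to −0.0245, which follows in part from deviations that sum to 0 within a group. On the values of the same number the block was taken as a pairing. Replicates differed by more than counting error (chi-square per degree of freedom of 6.87 to 11.7), and p-values measure the spread between these cultures of 1 line and 1 clone.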

Additional observations from a re-analysis of the deposited data

How the results depend on the processing

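Members called numbered 21 with RLE size factors and with library totals alone. DESeq2's Wald test and a filter of at least 10 counts in every library gave 20 each. No filter gave 22, an adjusted p below 0.05 gave 17, and removing chromosome and neighbourhood shifts gave 18 and 17. Over all genes, calls numbered 3833 of 15746 in the main fit, 3842 with RLE size factors and 3770 with library totals alone. They numbered 3293 of 17005 in DESeq2's Wald test, 3809 of 30691 with no filter and 3493 of 13878 with at least 10 counts. At an adjusted p below 0.05 they numbered 2989, and 3319 and 3197 with chromosome and neighbourhood shifts removed. With the replicate block 26 members were called (9 higher, 17 lower), where calls over all genes tested rose from 24.3% to 30.3%. The block kept all 21 calls and, beyond the 5 members named with it above, changed no other call of a member; it called 16 effectors and 7 co-receptors. With single libraries left out the count of members ran from 18 to 20, with 7 to 9 higher and 10 to 12 lower. These held 8 to 11 ligands and 8 to 10 receptors. Calls over all genes then ran from 3058 to 3790, with 16098 to 16206 genes tested. The KO to WT ratio of the ligand sum ran from 0.924 to 1.03 and that of the receptor sum from 0.727 to 0.774. Ratios by union exon length, an alternative chosen after seeing the data, were 0.990 and 0.742. Some log2 fold changes reversed. Without WT replicate 3 Efna4, which was not called, stood at −0.0077, in a range up to 0.228, and without KO replicate 1 Ntn3, also not called, stood at 0.0305, in a range down to −0.27. With the neighbourhood shift removed Robo1 stood at −0.007, Tiam1 at −0.10, Pak2 at −0.0478 and Gsk3b at −0.14, and with the chromosome shift removed Tiam1 stood at −0.14, Pak2 at −0.0247 and Gsk3b at −0.12. These 4 lie on chromosome 16, and the subtraction itself moves them. Members below 10 CPM have the largest standard errors, and most member calls lost without a library are among them.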
